A study of Homo sapiens with 12 samples.

Results

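Coenzyme Q (ubiquinone) is made in mitochondria from an aromatic head group and a polyisoprenoid tail, and 10 genes of its synthesis are described here in ES2 cells, a human ovarian cancer line, after loss of the mitochondrial ferredoxin FDX2. The 10 genes were HPDL, PDSS1, PDSS2, COQ2, COQ3, COQ4, COQ5, COQ6, COQ7 and COQ9. They were found by symbol among the 58735 gene identifiers of the count table, and all 10 had enough reads to be among the 16891 genes tested. HPDL, which acts in the supply of the head group, headed the set because an earlier look at these libraries had listed it among the genes that fell most after FDX2 loss at 20% O2. Its values at 20% O2 are therefore a description, and the 6 libraries at 3% O2 took no part in that choice.

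The cells are FDX2-iKO ES2 cells. They carry an HA-tagged, editing-resistant FDX2 under a doxycycline-inducible promoter, and their endogenous FDX2 gene was knocked out with CRISPR-Cas9 in every group, controls included. Doxycycline (Doxy) keeps the tagged FDX2 on and its withdrawal ("wo Doxy") removes it. Every contrast of FDX2 loss is thus also one of Doxy against no Doxy. Effects of the drug itself and of FDX2 loss cannot be told apart in these libraries. The words "without FDX2" below stand for the wo Doxy libraries. Poly(A) RNA was sequenced from 4 conditions with 3 biological replicates each, namely 20% O2 + Doxy, 20% O2 wo Doxy, 3% O2 + Doxy and 3% O2 wo Doxy. The cells at 20% O2 had been cultured for 6 days, whereas those at 3% O2 had spent 4 days at 20% and then 3 days at 3% O2, so that oxygen and the extra day cannot be told apart. The study isolated 2 knockout clones and showed results of a single one unless it said otherwise, and the labels name no clone for these libraries. Library totals ran from 24958386 to 34313637 counts (median 29621780). FDX2 itself had 2 to 13 counts per library in either state of Doxy and was too low to be tested, so that its loss could not be checked at the RNA level. The epithelial keratins KRT8, KRT18 and KRT7 and the mesenchymal filament VIM were read at 47.8 CPM (gene counts scaled to library size) or more in every library, whereas EPCAM, CDH1 and WT1 had at most 8 counts. PAX8, a Müllerian lineage factor, lay between 5.59 and 19.3 CPM. Of the 7 markers of other cell types, 6 had at most 6 counts and MYH11 had up to 20.

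The head group comes from tyrosine through 4-hydroxybenzoate, and HPDL, an iron-dependent dioxygenase related to the tyrosine-breakdown enzyme HPD, turns 4-hydroxyphenylpyruvate into 4-hydroxymandelate on that route. PDSS1 and PDSS2 together build the isoprenoid tail from products of the mevalonate pathway, and COQ2 joins tail and ring in the inner mitochondrial membrane. The ring is then hydroxylated and methylated by COQ3, COQ5, COQ6 and COQ7 within a complex that also holds COQ4 and the lipid-binding protein COQ9. The finished quinone carries electrons from complexes I and II and from several dehydrogenases to complex III.

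HPDL (ENSG00000186603) is a gene of 1 exon and 1629 bases on the plus strand of chromosome 1, from 45326905 to 45328533 in GRCh38, and no annotated exon of another gene overlaps it. The sequence of the 250 bases before its RefSeq start is shown because HPDL had the largest fold change of the 10 genes with FDX2 loss at either oxygen level.
HPDL, chr1:45326645-45326894, GRCh38.p14, plus strand: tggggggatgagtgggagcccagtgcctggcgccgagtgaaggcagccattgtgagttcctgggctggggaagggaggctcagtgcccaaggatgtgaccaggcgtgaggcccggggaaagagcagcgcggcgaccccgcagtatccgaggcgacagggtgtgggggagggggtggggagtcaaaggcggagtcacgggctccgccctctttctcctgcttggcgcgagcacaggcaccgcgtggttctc
This stretch was 68.0% G and C. It held no match on either strand to CCAAT, to CACGTG, to ACGTG (which lies within CACGTG) or to TTTGAA, so that no letters are capitalised. In windows of the same length, 32.0%, 6.35%, 18.5% and 13.3% of 35116 RefSeq promoters held these motifs. Windows were found for 8 of the 10 genes, and CCAAT was matched in at least 1 window of COQ2, COQ6 and COQ7. The absence of these letters here says nothing of any factor.

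HPDL was the most variable of the 10 genes between conditions. At 20% O2 its level was 32.4, 22.0 and 17.9 CPM in the + Doxy libraries and 8.22, 7.43 and 7.90 CPM in the wo Doxy libraries. All libraries with FDX2 thus lay above all libraries without it. The mean fell from 24.1 ± 7.50 CPM to 7.85 ± 0.396 CPM (SD, n = 3). This was a level 3.07 times lower, or -1.62 (SE 0.25) in log2 fold change. This decrease ranked 16 of the 16891 tested genes, and it is given without a test because it belongs to the contrast from which HPDL was picked. In these bulk libraries, fewer cells with the transcript and less transcript per cell cannot be told apart.

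At 3% O2 the difference in HPDL was smaller and its libraries overlapped. The + Doxy libraries had 15, 14.4 and 24.0 CPM and the wo Doxy libraries 10.2, 15 and 12.4 CPM. Replicate 3 of 3% O2 + Doxy stood above its group and replicate 2 of 3% O2 wo Doxy reached the level of the remaining controls. The log2 fold change was -0.51 (SE 0.24, 95% interval -1.04 to 0.03), with an adjusted p of 0.239 in edgeR's quasi-likelihood test over all genes. The spread between replicates was thus too wide for HPDL to pass the threshold of 0.05.

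The spread of HPDL moved with the base composition of the libraries. HPDL is GC-rich, with 62.8% G and C in its longest transcript, above 93.6% of tested genes (median 47.7%). In each library, genes drifted up or down with their GC content, and the slope of this drift was steepest in replicate 1 of 20% O2 + Doxy (0.172 log2 units per 10% GC), replicate 3 of 3% O2 + Doxy (0.191) and replicate 2 of 3% O2 wo Doxy (0.182). In the remaining 9 libraries it lay between -0.150 and 0.0563. Without Doxy the slope also differed between conditions, from -0.150 to -0.0863 at 20% and from 0.0248 to 0.182 at 3% O2. Taking out the GC trend may therefore also take out part of a difference between conditions. In 3 of the 4 conditions, 20% O2 wo Doxy being the exception, the library with the steepest slope also had the highest HPDL level.

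With each library's GC trend taken out, an alternative chosen after seeing the data, the HPDL replicates drew together. The level then was 25.2, 22.9 and 20.2 CPM in 20% O2 + Doxy and 9.38, 8.42 and 9.47 CPM in 20% O2 wo Doxy. At 3% O2 it was 16.4, 15.2 and 19.1 CPM with Doxy and 10.5, 11.9 and 11.5 CPM without, and the groups no longer overlapped. The SD in the + Doxy groups went from 7.50 to 2.50 CPM at 20% and from 5.38 to 1.98 CPM at 3% O2. The log2 fold change at 3% O2 was then -0.59 (SE 0.10), with an adjusted p of 0.00211 by the same edgeR test, and of 0.00675 with the replicate number as a block. At 20% O2 the corrected log2 fold change was -1.32 (SE 0.10), ranked 37 among the decreases. The HPDL call at 3% O2 therefore turned on the correction, while its direction and size hardly moved. Leaving out the 3 libraries of steepest slope gave -0.39 at 3% O2 (adjusted p = 0.0565, edgeR), and leaving out replicate 3 of 3% O2 + Doxy alone gave -0.23 (adjusted p = 0.537, edgeR). Over all alternatives the value at 3% O2 lay between -0.65 and -0.23 and its adjusted p in edgeR or DESeq2 between 0.00211 and 0.537.

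**Figure D1:**
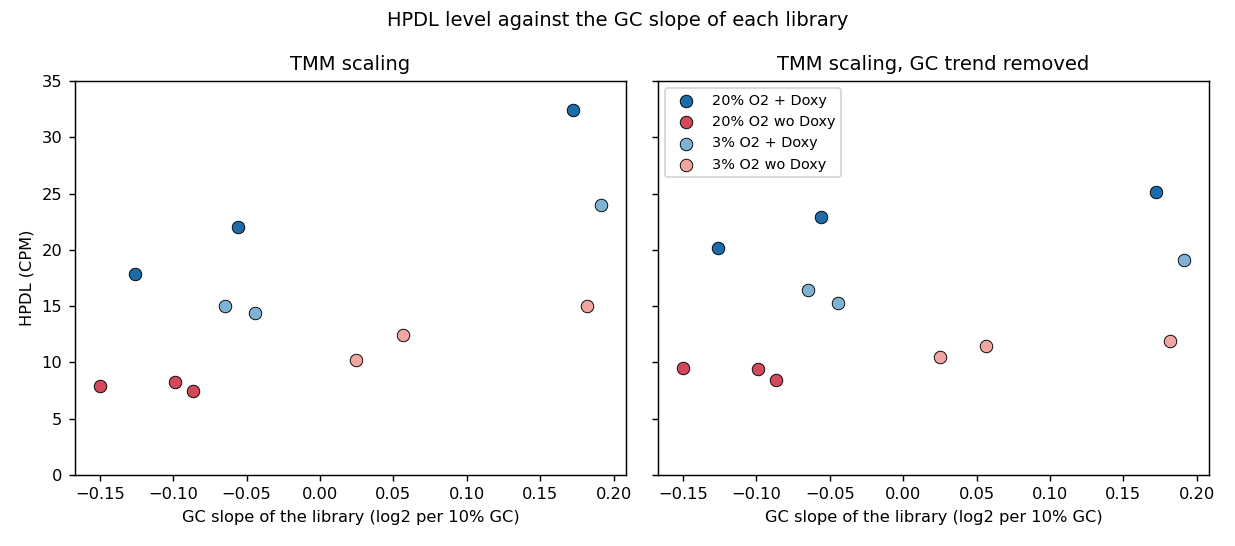
HPDL level in CPM (vertical axis) against the GC slope of each library in log2 units per 10% GC (horizontal axis), 1 point per library coloured by condition, before (left) and after (right) the GC trend was removed. The 3 libraries at slopes of 0.172 to 0.191 had the highest HPDL level of their condition, and after correction the 3% O2 + Doxy libraries (15.2 to 19.1 CPM) lay above the 3% O2 wo Doxy libraries (10.5 to 11.9 CPM).

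Between oxygen levels, HPDL is again only described, since these contrasts reuse the libraries at 20% O2. With Doxy its mean was 24.1 CPM at 20% and 17.8 ± 5.38 CPM (SD, n = 3) at 3% O2, and libraries overlapped. In log2 fold change this was -0.44 (SE 0.24). Without Doxy it was 7.85 CPM at 20% and 12.5 ± 2.41 CPM (SD, n = 3) at 3% O2, and libraries did not overlap. The fitted log2 fold change was 0.68 (SE 0.25), and 0.32 after GC correction. The response to FDX2 loss at 3% minus that at 20% O2 was 1.11 (SE 0.34), or 0.74 after correction. The gap between FDX2 states was narrower at 3% O2, on both scales. Since HPDL was picked for its wide gap at 20% O2, nothing is read from this difference.

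**Figure D2:**
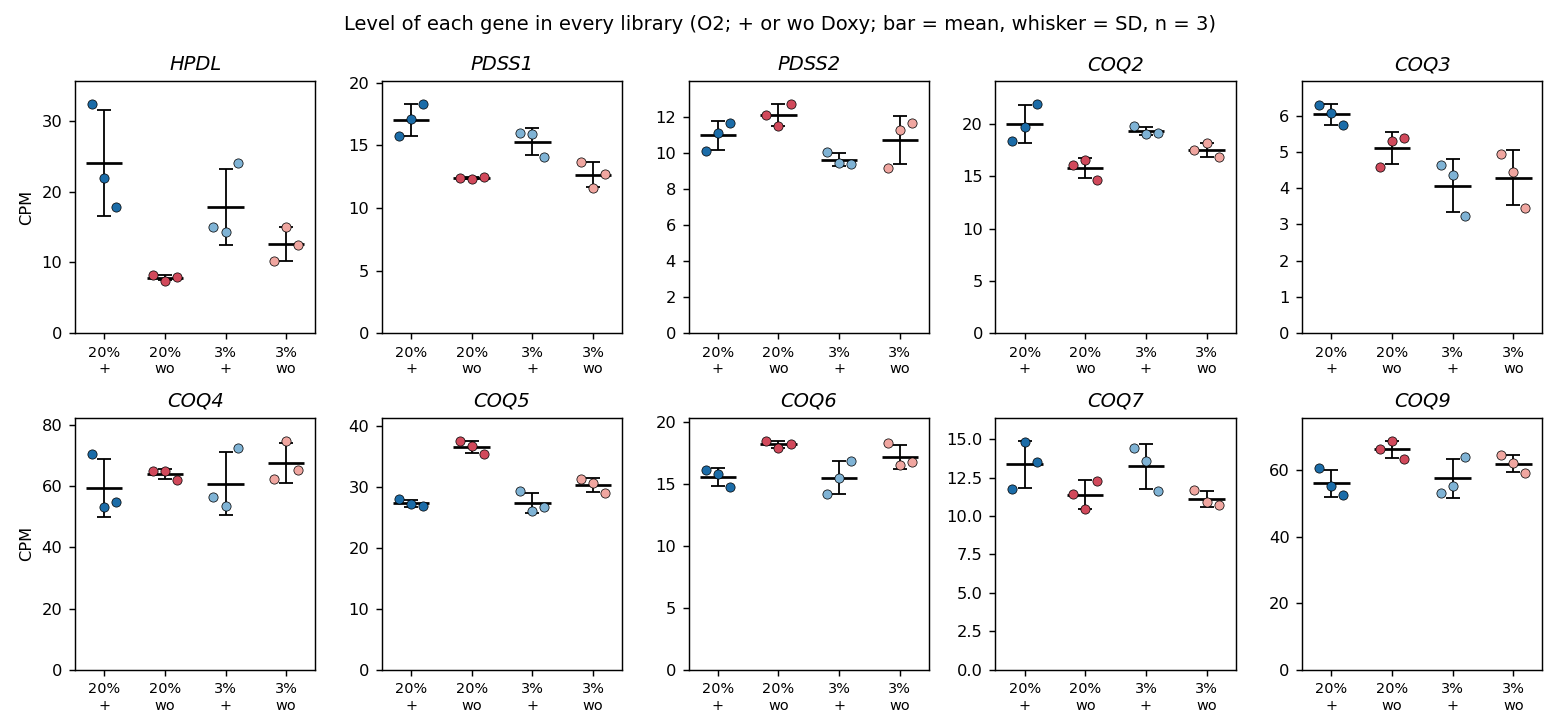
CPM of each of the 10 genes (vertical axes, from 0) in the 12 libraries, grouped by O2 and Doxy (+ or wo), with 1 point per library, bars at the means and whiskers of 1 SD (n = 3). HPDL ran from 7.43 to 32.4 CPM, COQ5 was highest in 20% O2 wo Doxy, and most of the remaining genes moved little.

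Of the tail-synthesis pair, PDSS1 was lower without FDX2 at 20% O2. PDSS1 (ENSG00000148459, chromosome 10, 26697659 to 26746798, plus strand) encodes the catalytic subunit of the prenyl diphosphate synthase. Its level at 20% O2 was 15.8, 17.1 and 18.3 CPM with Doxy and 12.4, 12.3 and 12.4 CPM without. The libraries at 3% O2 read 15.96, 15.93 and 14.06 CPM with Doxy and 13.6, 11.6 and 12.7 CPM without. At either oxygen level all libraries without FDX2 lay below all those with it. Its log2 fold change was -0.46 (SE 0.081) at 20% and -0.27 (SE 0.082) at 3% O2, and the latter did not pass the test (edgeR, adjusted p = 0.0674). It did pass without replicate 3 of 3% O2 + Doxy (-0.33, edgeR, adjusted p = 0.0342) and after GC correction (-0.24, edgeR, adjusted p = 0.0212). PDSS1 overlaps ABI1 on the opposite strand over 10.5% of its exon bases and has the named pseudogenes PDSS1P1 and PDSS1P2, and the strand setting of the counting is not stated, so that a share of its counts is uncertain.

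PDSS2 (ENSG00000164494, chromosome 6, 107152557 to 107459564, minus strand), the partner subunit, had 10.1, 11.1 and 11.7 CPM in 20% O2 + Doxy and 12.1, 11.5 and 12.7 CPM in 20% O2 wo Doxy. Levels at 3% O2 were 10.1, 9.43 and 9.38 CPM with Doxy and 9.18, 11.3 and 11.7 CPM without. The groups overlapped at both oxygen levels. Its log2 fold changes were 0.14 (SE 0.096) and 0.15 (SE 0.097, 95% interval -0.06 to 0.37), the latter with an adjusted p of 0.370 in edgeR's test.

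COQ2 (ENSG00000173085, chromosome 4, 83261536 to 83284914, minus strand), the prenyltransferase that joins ring and tail, was lower without FDX2 at 20% O2. Its level was 18.4, 19.7 and 21.9 CPM with Doxy and 16.05, 16.60 and 14.69 CPM without. For 3% O2 the values were 19.8, 19.1 and 19.1 CPM with Doxy and 17.6, 18.2 and 16.9 CPM without. The groups stood apart at both oxygen levels. The log2 fold change was -0.34 (SE 0.074) at 20% and -0.14 (SE 0.074) at 3% O2, where it did not pass (edgeR, adjusted p = 0.288).

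Of the methyltransferases COQ3 and COQ5, the latter was higher without FDX2 at 20% O2. COQ5 (ENSG00000110871, chromosome 12, 120503274 to 120534434, minus strand), the C-methyltransferase of the ring, was the gene that was most clearly higher without FDX2. At 20% O2 it had 28.0, 27.2 and 26.9 CPM with Doxy and 37.6, 36.8 and 35.5 CPM without. In 3% O2 the level was 29.3, 26.2 and 26.7 CPM with Doxy and 31.32, 30.67 and 29.04 CPM without. The groups were far apart at 20% O2 and overlapped slightly at 3% O2. In log2 fold change this was 0.42 (SE 0.057) at 20% and 0.15 (SE 0.058) at 3% O2, where it did not pass (edgeR, adjusted p = 0.158) except after GC correction (0.17, edgeR, adjusted p = 0.0496).

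Between oxygen levels COQ5 was called in the libraries without Doxy. Without Doxy it fell from 36.6 ± 1.04 CPM at 20% to 30.3 ± 1.18 CPM at 3% O2 (SD, n = 3), with every library at 3% below every library at 20% O2. The fitted log2 fold change was -0.27 (SE 0.057, edgeR, adjusted p = 0.00637). With Doxy the corresponding means were 27.4 ± 0.579 and 27.4 ± 1.70 CPM (SD, n = 3), and the log2 fold change was 0.00 (SE 0.058, 95% interval -0.13 to 0.13). The difference of its FDX2-loss responses, -0.27 (SE 0.081), did not pass the test (edgeR, adjusted p = 0.0692) but did after GC correction (-0.28, edgeR, adjusted p = 0.0230) and in DESeq2 (-0.29, adjusted p = 0.0276). COQ5 shares 3.33% of its exon bases with RNF10 on the opposite strand.

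COQ3 (ENSG00000132423, chromosome 6, 99369400 to 99394204, minus strand), the O-methyltransferase, was the least counted of the set, with 100 to 197 counts per library. At 20% O2 it had 6.30, 6.09 and 5.73 CPM with Doxy and 4.59, 5.31 and 5.40 CPM without. At 3% O2 it had 4.63, 4.35 and 3.23 CPM with Doxy and 4.95, 4.44 and 3.46 CPM without. Its highest libraries were thus those with FDX2 at 20% O2, and at 3% O2 the Doxy groups overlapped. In the presence of Doxy COQ3 was lower at 3% than at 20% O2 without overlap, by a log2 fold change of -0.57 (SE 0.16). That did not pass in edgeR (adjusted p = 0.109) and lay at the threshold in DESeq2 (-0.58, adjusted p = 0.04999). After GC correction it was -0.54 (edgeR, adjusted p = 0.0569), with the replicate block added -0.55 (edgeR, adjusted p = 0.0496), and without the 3 libraries of steepest GC slope -0.40 (edgeR, adjusted p = 0.294). With FDX2 loss the log2 fold change was -0.24 (SE 0.16) at 20% and 0.07 (SE 0.16, edgeR, adjusted p = 0.830) at 3% O2.

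Of the ring hydroxylases, COQ6 was higher without FDX2 at 20% O2 and COQ7 had overlapping groups. COQ6 (ENSG00000119723, chromosome 14, 73949926 to 73963670, plus strand) is a flavin-dependent hydroxylase fed with electrons by ferredoxin reductase and a mitochondrial ferredoxin. Its level at 20% O2 was 16.2, 15.8 and 14.8 CPM with Doxy and 18.5, 17.9 and 18.3 CPM without. Levels at 3% O2 were 14.2, 15.5 and 16.8 CPM with Doxy and 18.3, 16.5 and 16.7 CPM without. The groups stood apart at 20% and overlapped at 3% O2, with log2 fold changes of 0.23 (SE 0.073) and 0.15 (SE 0.073, edgeR, adjusted p = 0.258). The adjusted p at 20% O2 went from 0.0327 to 0.0670 with the replicate number as a block (edgeR), to 0.174 with no filter on low counts, and to between 0.0449 and 0.113 with single libraries left out, passing only without replicate 1 of 20% O2 + Doxy. After GC correction COQ6 stayed called at 20% O2 (0.25, edgeR, adjusted p = 0.00586). Since 43.4% of the exon bases of COQ6 overlap ENTPD5 or FAM161B on the opposite strand, its counts may hold reads of those genes and are uncertain.

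COQ7 (ENSG00000167186, chromosome 16, 19067599 to 19080095, plus strand), a di-iron hydroxylase, had 11.7, 14.8 and 13.5 CPM in 20% O2 + Doxy and 11.5, 10.5 and 12.3 CPM in 20% O2 wo Doxy. For 3% O2 the values were 14.4, 13.6 and 11.6 CPM with Doxy and 11.7, 10.9 and 10.7 CPM without. Its groups overlapped in every pair that was compared. Its log2 fold change was -0.23 (SE 0.11) at 20% and -0.25 (SE 0.11) at 3% O2, where it did not pass (edgeR, adjusted p = 0.185). At 20% O2 it went to -0.33 without replicate 1 of 20% O2 + Doxy and to -0.32 without the 3 libraries of steepest GC slope, and it was called in both of these fits. At 3% O2 it was called in 1 alternative fit, that without the 3 libraries of steepest GC slope.

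COQ4 and COQ9, which belong to the same complex, had the highest CPM of the set. COQ4 (ENSG00000167113, chromosome 9, 128322536 to 128334072, plus strand) had 70.5, 53.2 and 54.8 CPM in 20% O2 + Doxy and 65.1, 65.0 and 62.1 CPM in 20% O2 wo Doxy. In 3% O2 the level was 56.6, 53.5 and 72.5 CPM with Doxy and 62.4, 74.9 and 65.3 CPM without. Its outlying high values fell in the same 3 libraries of steep GC slope as those of HPDL, and the GC content of COQ4 is 52.9%. The log2 fold change was 0.11 (SE 0.13) at 20% and 0.15 (SE 0.13, edgeR, adjusted p = 0.529) at 3% O2. Without those 3 libraries it was 0.24 at 20% (edgeR, adjusted p = 0.00241) and 0.19 at 3% O2 (edgeR, adjusted p = 0.0278), and it then passed at both. After GC correction it was 0.20 and 0.15, and it passed at neither 20% (edgeR, adjusted p = 0.0568) nor 3% O2 (edgeR, adjusted p = 0.217). Leaving out single libraries gave 0.03 (without replicate 2 of 20% O2 + Doxy) to 0.23 (without replicate 1) at 20% and 0.05 (without replicate 2 of 3% O2 + Doxy) to 0.29 (without replicate 3) at 3% O2.

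COQ9 (ENSG00000088682, chromosome 16, 57447425 to 57461275, plus strand) had 60.5, 55.2 and 52.6 CPM in 20% O2 + Doxy and 66.5, 68.7 and 63.4 CPM in 20% O2 wo Doxy. The libraries at 3% O2 read 53.2, 55.2 and 64.1 CPM with Doxy and 64.5, 62.2 and 59.2 CPM without. It was thus higher without FDX2 in all libraries at 20% O2, and its groups overlapped at 3% O2. In log2 fold change this was 0.24 (SE 0.078) at 20% and 0.11 (SE 0.079, edgeR, adjusted p = 0.447) at 3% O2. The call at 20% O2 was lost with the replicate block (edgeR, adjusted p = 0.0683), with no filter (0.0952) and without any single library but replicate 1 of 20% O2 + Doxy (0.0513 to 0.122). It was kept after GC correction (0.26, edgeR, adjusted p = 0.0117).

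Seen as a set, the 10 genes did not move one way. At 20% O2, 3 were called higher (COQ5, COQ6 and COQ9) and 3 lower (HPDL, PDSS1 and COQ2), beside 17.6% of all tested genes called higher and 17.7% lower, and nothing is read from these counts because this contrast served to pick HPDL. COQ6 and COQ9 were not called with the replicate block, which left 1 higher and 3 lower. The GC-corrected fit had 3 higher and 3 lower, beside 26.1% and 20.3% of all genes. The median log2 fold change of the 10 was -0.06, against 0.01 over all genes. At 3% O2, 0 of the 10 were called in either direction, beside 4.2% of all genes higher and 3.11% lower. At an unadjusted p under 0.05, PDSS1, COQ5 and COQ7 passed at 3% O2, and DESeq2 called PDSS1 alone. Shares of all genes at the unadjusted threshold and in DESeq2 are not given here, and nothing is read from those counts. The GC-corrected edgeR fit called HPDL and PDSS1 lower and COQ5 higher, beside 10.6% of genes higher and 8.66% lower in that fit. The median log2 fold change at 3% O2 in the plain fit was 0.09 for the 10 genes and 0.04 for all genes.

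**Figure D3:**
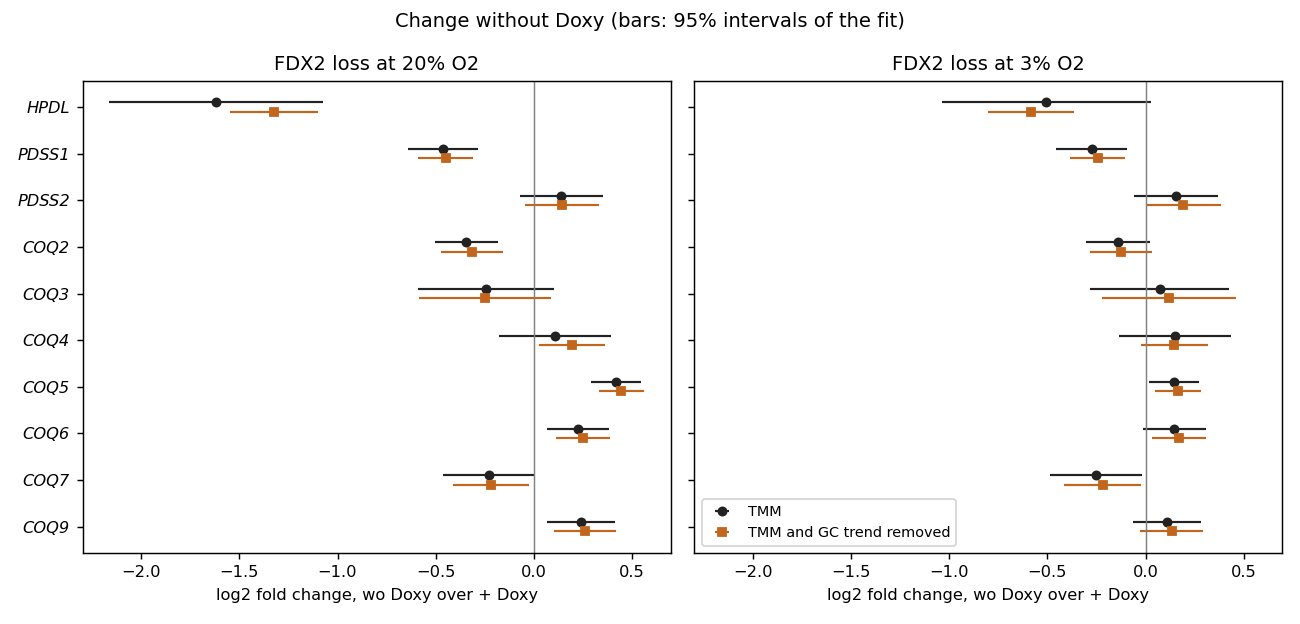
Log2 fold change of wo Doxy over + Doxy (horizontal axis) for the 10 genes at 20% O2 (left) and 3% O2 (right), with 95% intervals of the edgeR fit before (circles) and after (squares) removal of the GC trend. HPDL lay at -1.62 at 20% and -0.51 at 3% O2, its interval at 3% O2 shrank with the correction, and the remaining 9 genes stayed between -0.46 and 0.42 before it.

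Between oxygen levels with Doxy, 0 of the 10 genes were called in either direction, beside 1.63% of all genes higher and 0.385% lower. At an unadjusted p under 0.05, COQ3 alone passed, and DESeq2 called COQ3 alone. Apart from HPDL, the members' log2 fold changes with Doxy ran from -0.57 to 0.04. Without Doxy, COQ5 alone was called, as lower, beside 13.9% of all genes higher and 11.9% lower. With the replicate number as a block and only the 6 libraries compared, COQ5 was again called. The members other than HPDL ran from -0.27 to 0.15 without Doxy. For the difference of the FDX2-loss responses, edgeR called 0 of the 9 genes other than HPDL, beside 3.21% of all genes with a positive and 4.08% with a negative difference. At an unadjusted p under 0.05, COQ5 alone of the 9 passed there, and DESeq2 called COQ5 alone. Apart from HPDL, the members' differences of response ran from -0.27 to 0.31. For the unadjusted threshold, DESeq2 and the replicate block, shares of all genes are not given here, and nothing is read from those calls.

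Per transcript length, the 10 genes ranged within about an order of magnitude. On the scale of RPKM (reads per kilobase of all annotated exon bases and scaled to library size), the order in 20% O2 + Doxy was HPDL 14.8 ± 4.601, COQ9 13.0 ± 0.942, COQ4 12.4 ± 1.99, COQ5 10.8 ± 0.229, PDSS1 8.73 ± 0.646, COQ2 7.21 ± 0.646, COQ3 4.14 ± 0.196, COQ7 3.24 ± 0.376, PDSS2 2.79 ± 0.203 and COQ6 2.33 ± 0.111 (SD, n = 3). The range of HPDL overlapped those of COQ9, COQ4 and COQ5, and the neighbouring ranges of COQ9 and COQ4, of COQ4 and COQ5 and of COQ7 and PDSS2 overlapped, so that these places in the order are not settled by the replicates. Without FDX2 at 20% O2, HPDL dropped to 4.82 ± 0.243 RPKM (SD, n = 3), below PDSS1 and COQ2. The order also depended on the length taken. Per length of the longest transcript, COQ9 led with 30.7 RPKM in 20% O2 + Doxy, followed by COQ4 (19.0), COQ5 (17.8) and HPDL (14.8).

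**Figure D4:**
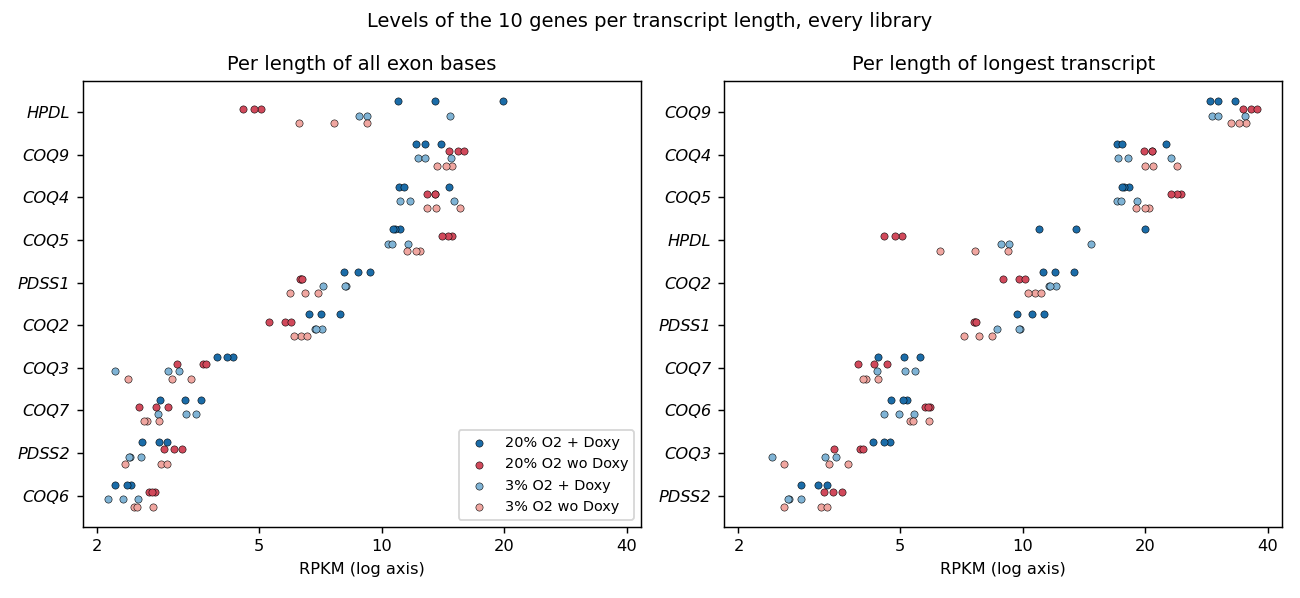
RPKM of the 10 genes (horizontal log axis) in the 12 libraries, 1 point per library coloured by condition, per length of all exon bases (left) and of the longest transcript (right), with genes ordered by their mean in 20% O2 + Doxy. HPDL is first at 14.8 RPKM on the left and is the gene whose conditions are spread most widely, and COQ9 leads on the right at 30.7 RPKM.

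The genes whose pattern was most like that of HPDL over the 12 libraries were sought among 13599 tested genes with a symbol and a mean of at least 1 CPM. By Pearson correlation of log2 CPM they were E2F1 (0.990), a transcription factor of S-phase entry, URB2 (0.979), a ribosome biogenesis factor, PYCR3 (0.978), an enzyme of proline synthesis, ACAD9 (0.978), an assembly factor of complex I, and CENPV (0.977). The libraries share 4 conditions and their GC drifts, and E2F1 and PYCR3 are as GC-rich as HPDL (62.5% and 63.2%). After GC correction the correlations were 0.947 for E2F1, 0.9745 for URB2, 0.965 for PYCR3, 0.972 for ACAD9 and 0.949 for CENPV, which placed them at ranks 94, 15, 34, 22 and 87, so that none of them stayed among the 5 most like HPDL. Their log2 fold changes with FDX2 loss ran from -0.83 for E2F1 to -0.45 for ACAD9 at 20% O2. At 3% O2 they ran from -0.27 for URB2 to -0.09 for CENPV. Since HPDL was picked for its fall at 20% O2, its size there is not compared with theirs.

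Among the coenzyme Q genes, COQ2 (0.70) and PDSS1 (0.64) correlated with HPDL best, whereas COQ5 ran opposite to it (-0.83). COQ6 (-0.61), COQ9 (-0.50) and PDSS2 (-0.45) were also negative, and COQ7 (0.36), COQ3 (0.07) and COQ4 (0.05) lay between. After GC correction PDSS1 rose to 0.87 and COQ4 went to -0.57, and COQ5 was at -0.85. MKI67, a marker of cycling cells, likewise followed the FDX2 state, with means of 578 and 223 CPM with and without Doxy at 20% O2 and 655 and 436 CPM at 3% O2. Its log2 fold change was -1.37 at 20% and -0.59 at 3% O2, and its part in the values of HPDL was not tested.

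Of the genes that start within 100 kb of HPDL, 4 were tested, and their values are given as a description. TOE1, a deadenylase that trims small nuclear RNAs, starts 12.8 kb from HPDL on the same strand and was lower without FDX2. Its means were 60.8 and 35.5 CPM with and without Doxy at 20% O2 and 56.4 and 46.5 CPM at 3% O2. Its log2 fold change was -0.77 (SE 0.071) at 20% and -0.28 (SE 0.070) at 3% O2. MUTYH, a DNA glycosylase gene on the opposite strand that overlaps TOE1 at its start, stood at -0.15 (SE 0.10) and -0.06 (SE 0.10), and at 0.07 and -0.13 after GC correction, so that its direction at 20% O2 turned. Since the strand setting is not stated, reads of TOE1 and MUTYH in the overlap cannot be told apart. ZSWIM5 was higher without FDX2, at 0.54 (SE 0.11) and 0.26 (SE 0.11), the opposite direction to HPDL and TOE1. The noncoding LINC01144 had at most 32 counts per library.

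The other parts of the pathway were followed by gene lists. Of 7 genes of tyrosine breakdown, TAT, HPD and HGD had at most 7 counts, so that HPD, the relative of HPDL, was all but unread in these cells. The aminotransferases that make 4-hydroxyphenylpyruvate moved apart at 20% O2, where GOT1 rose (0.33, edgeR, adjusted p = 0.000383) and GOT2 fell (-0.45, edgeR, adjusted p = 0.000127). They were the 1 higher and 1 lower call of the list with FDX2 loss there, beside 17.6% and 17.7% of all genes. At 3% O2 0 of the 4 tested genes of this list were called in the plain or the GC-corrected edgeR fit or in DESeq2, and 0 had an unadjusted p under 0.05. Of all genes, 4.2% were called higher and 3.11% lower there in the plain fit, and 10.6% and 8.66% after GC correction.

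Of 6 accessory genes of coenzyme Q (COQ8A, COQ8B, COQ10A, COQ10B, PPTC7 and STARD7), with FDX2 loss 2 rose and 1 fell at 20% O2, beside 17.6% and 17.7% of all genes. At 3% O2, 0 were called in the plain edgeR fit (4.2% of all genes higher, 3.11% lower) or after GC correction (10.6% and 8.66%). In the plain fit 1 had an unadjusted p under 0.05, and DESeq2 called 1, with shares of all genes not given here. STARD7, a lipid carrier that also serves coenzyme Q export, fell by 0.35 on the log2 scale at 20% O2 (edgeR, adjusted p = 7.16e-05), and COQ10B, a quinone-binding chaperone, rose by 0.24 (edgeR, adjusted p = 0.0165). Of the electron carriers that can feed COQ6, FDX1 and FDXR were tested and passed in none of the 5 comparisons in edgeR. Across these comparisons 0.385% to 17.7% of all genes were called in a single direction. In each of the oxygen comparisons 1 of them had an unadjusted p under 0.05, and DESeq2 called 1 without Doxy, with shares of all genes not given here. FDXR had means of 9.09 and 7.36 CPM with and without Doxy at 20% O2 and 7.64 and 8.23 CPM at 3% O2.

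The isoprenoid-supply list moved mostly down at 20% O2. With FDX2 loss 7 of its 9 genes fell and 1 rose, beside 17.7% and 17.6% of all tested genes, with a median log2 fold change of -0.36 against 0.01 over all genes. MVK, a kinase of the mevalonate pathway, fell by 0.61 on the log2 scale (edgeR, adjusted p = 0.00701), MVD by 0.50 (edgeR, adjusted p = 0.0277) and FDPS by 0.32 (edgeR, adjusted p = 0.000687). With GC correction 6 remained lower, beside 20.3% of all genes. FDPS then no longer passed (-0.18, adjusted p = 0.0641, edgeR), and MVD went to -0.21 (adjusted p = 0.0447, edgeR). At 3% O2 the same list had 0 calls in either edgeR fit and in DESeq2, 0 genes at an unadjusted p under 0.05, and a median of -0.02. Of all genes, 4.2% were called higher and 3.11% lower there in the plain fit, and 10.6% and 8.66% after GC correction. Without Doxy, 5 of the 9 genes were higher at 3% than at 20% O2, beside 13.9% of all genes. The difference of the responses passed for 2 genes, both positive (3.21% of all genes), and after GC correction for 5 positive (8.73% of all genes) and 1 negative (9.58%).

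Enzymes that reduce coenzyme Q were mixed. Of 12 listed, PRODH and CHDH had at most 1 count, and with FDX2 loss 3 of the 10 tested genes rose and 3 fell at 20% O2, beside 17.6% and 17.7% of all genes. NQO1, a quinone reductase of the cytosol, had means of 139, 237, 101 and 120 CPM in 20% O2 + Doxy, 20% O2 wo Doxy, 3% O2 + Doxy and 3% O2 wo Doxy. Its log2 fold change with FDX2 loss was 0.77 (edgeR, adjusted p = 3.22e-07) at 20% and 0.24 (edgeR, adjusted p = 0.00551) at 3% O2, and the difference of -0.54 passed the test too (edgeR, adjusted p = 0.000531). NQO1 was the only call of the list at 3% O2 in the plain fit (4.2% of all genes higher), and the GC-corrected fit had 2 higher and 1 lower there (10.6% and 8.66% of all genes). Of the complex II subunits at 20% O2, SDHC was higher (0.35, edgeR, adjusted p = 0.000728) and SDHA lower (-0.42, edgeR, adjusted p = 0.00118). SDHB (0.08, edgeR, adjusted p = 0.336) and SDHD (0.06, edgeR, adjusted p = 0.676) were not called there. DHODH, which links pyrimidine synthesis to coenzyme Q, also fell at 20% O2 (-0.41, edgeR, adjusted p = 0.00227) and stood at -0.03 (edgeR, adjusted p = 0.853) at 3% O2.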

How the data were processed

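Poly(A) RNA of 12 libraries had been sequenced in paired-end mode. The authors aligned the reads (STAR, GRCh38, per the labels' processing notes) and deposited raw gene counts from featureCounts. Versions, strand setting and handling of multiply aligned reads are not given in the sources used here. All 58735 identifiers are in GENCODE release 29, and 58207 have a symbol. Random-hexamer priming after poly(A) selection and amplification can leave base-composition drifts in such counts.

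The count test was edgeR 4.0.16 (with limma 3.58.1, under R 4.3.3). Of 32966 genes with a count, filterByExpr (minimum count 10, total 15) kept 16891. Scaling was by TMM. A single quasi-likelihood fit of the 12 libraries had a mean for each of the 4 conditions, 8 residual degrees of freedom and a biological coefficient of variation of 16.3%. A gene was called at a Benjamini-Hochberg adjusted p under 0.05 over all tested genes. CPM and log2 CPM (prior count 2) use TMM-scaled totals. For the GC correction, each library's deviation from the mean log2 CPM was smoothed against transcript GC (lowess, span 0.3, genes above 2 log2 CPM) and used as an offset. Steps were tested on simulated data. DESeq2 1.42.0 was an alternative. Pairs of replicates differed beyond sampling noise in every condition.

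The 10 genes and the lists were chosen with earlier results of these data known. All 10 genes are named with values for FDX2 loss at both oxygen levels. In the remaining comparisons HPDL, COQ5 and in part COQ3 have values, and the other members are given as ranges. List genes are named when called in at least 2 of the 5 comparisons, at most 4 a list by the size of their change at 3% O2. Also named are the 5 genes most like HPDL, tested neighbours within 100 kb, FDX2, MKI67, and SDHB and SDHD as the remaining complex II subunits. Some genes that these rules name are not reported here. For the pairing check, same-numbered libraries of 20% and 3% O2 wo Doxy deviated together (correlations 0.190 to 0.497), and no other pair of conditions had all its correlations above 0.1. Protein sequences were not used here.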

Additional observations from a re-analysis of the deposited data

How the results depend on the processing

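With FDX2 loss at 20% O2, 6 of the 10 genes were called, and 1 (HPDL) when a 1.5-fold change was also asked. The COQ6 and COQ9 calls were lost with the replicate block, with no filter and without each single library but 20% O2 + Doxy replicate 1, which left 4, and without that library COQ7 was added, which made 7. Both calls were kept after GC correction. Without the 3 libraries of steepest GC slope, COQ4 and COQ7 were called at 20% O2. At 3% O2, 0 were called, against 1 in DESeq2, 3 after GC correction with or without the replicate block, 3 without the 3 libraries of steepest GC slope, and 0 to 1 when single libraries were left out, the 1 being PDSS1 without 3% O2 + Doxy replicate 3. For 3% against 20% O2 with Doxy, 0 were called, against 1 in DESeq2, 1 after GC correction and 2 after GC correction with the replicate block. Without Doxy, 1 was called, against 0 at 1.5-fold and 2 with only the compared libraries (with or without the replicate block), in DESeq2, after GC correction, with no filter and without the 3 steep libraries, and 1 to 2 with single libraries left out, the 2 coming without 3% O2 wo Doxy replicate 1. For the difference of the responses, 0 were called, against 2 in DESeq2, 2 after GC correction with or without the replicate block, 2 without the 3 steep libraries, 1 with no filter and 0 to 2 with single libraries left out (1 without 20% O2 + Doxy replicate 3 and 2 without 3% O2 + Doxy replicate 3). These counts include HPDL, which is only described outside FDX2 loss at 3% O2. The GC-corrected fit called 26.1% of all genes higher and 20.3% lower with FDX2 loss at 20% O2, and 10.6% and 8.66% at 3% O2. For 3% against 20% O2 its shares were 5.18% and 2.31% with Doxy and 17.2% and 15.9% without. For the difference they were 8.73% and 9.58%, so that it called more of all genes in every comparison. Shares for the remaining fits are not given here, and nothing is read from these changes in count. The fits with the replicate block on all 12 libraries and no GC correction changed no count by over 1.5 times, and the cause of the changes above was not tested.

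COQ3 with FDX2 loss at 3% O2 went from 0.07 to -0.12 without the 3 steep libraries and ran from -0.0727 to 0.205 with single libraries left out. COQ5 for 3% against 20% O2 with Doxy was 0.00199, and -0.00276 with only the compared libraries, -0.00485 with the replicate block added to them, -0.00609 with DESeq2 size factors, -0.00524 in DESeq2 and -0.0152 with no filter, and it ran from -0.0500 to 0.0330 with single libraries left out. Of 22 member values given only as ranges, 11 turned sign in some fit, to at most 0.112 in size, and 0 passed the test. Changing TMM for DESeq2 size factors moved the median of all genes by at most 0.0198 in size. Outside HPDL the members had 100 to 2242 counts per library.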
